A study of Homo sapiens with 60 samples.

Results

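This account describes 32 genes of the ATF4 and amino acid response in HepG2, a human liver cancer cell line, exposed to water extracts of digestive herbal medicines. The genes were matched by symbol to Ensembl identifiers in a table of 60675 genes. They comprised 8 genes of amino acid biosynthesis, 8 amino acid transporters, 11 stress regulators and 5 secreted proteins and other targets. Of the 32 genes, 30 passed the filter on low counts.

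The 7 extracts were given for 24 h at 20, 100 and 500 µg/mL, and 3 vehicle libraries (0.1% DMSO per the sample labels, 2% in the series design) served as the untreated reference. Among them were the single herbs Aconiti Lateralis Radix Preparata and Bupleuri Radix, which share a set, and Cimicifugae Rhizoma and Citri Unshius Pericarpium, which share another. The formulas Banhasasim-tang and Yijung-tang form a further set, and Bojungikgi-tang has its own. Sets were read from the first part of the sample codes in the titles, and the labels do not say what that part stands for. All titles, vehicle included, carry the name BatchB. All groups had 3 libraries except Bojungikgi-tang, which had 1 library at each dose. All groups, vehicle included, were the same line in the same medium with serum, and no allele was altered. The labels do not say that the 3 libraries of a group were separate cultures, so p-values measure only the spread between libraries, which may be technical. The vehicle belonged to a set of its own, so set and treatment cannot be told apart in comparisons with vehicle, whereas the doses of an extract shared a set.

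ATF4 is a transcription factor whose messenger RNA is translated more when kinases that sense amino acid shortage, unfolded protein, haem shortage or double-stranded RNA phosphorylate the initiation factor eIF2. It raises genes that make, import and charge amino acids onto transfer RNA, together with regulators that later restrain the response. In the liver this programme also acts through secreted proteins such as GDF15 and FGF21. Because ATF4 is controlled largely at translation, the level of its messenger RNA is not a measure of its protein.

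ATF4 and its C/EBP partners bind a composite DNA element, here searched on both strands as TTNCATCA. The window ran from 250 bases before to 50 bases after the first listed RefSeq start of each gene (GRCh38.p14). Any other start of a member was not searched. Windows were listed for 27 of the 32 genes. PSPH, SHMT2, PYCR1, SLC7A11 and NUPR1 had no entry. The letters occurred in 6 of the 27 windows (22.2%) and in 3.62% of 35116 promoter windows of all genes. The 4 matches that lay before the start are shown on the gene strand because they place the element in the promoters of the asparagine synthetase gene, of a regulator and of 2 targets that were barely detected here. Capitals mark the element, read as its reverse complement where it lies on the other strand.
ASNS (chr7:97872453-97872492, minus strand, first base of the element at -68): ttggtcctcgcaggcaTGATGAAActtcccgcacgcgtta
ATF3 (chr1:212565200-212565239, plus strand, at -191): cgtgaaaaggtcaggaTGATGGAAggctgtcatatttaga
CHAC1 (chr15:40953246-40953285, plus strand, at -209): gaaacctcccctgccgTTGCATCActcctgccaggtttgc
FGF21 (chr19:48755454-48755493, plus strand, at -54): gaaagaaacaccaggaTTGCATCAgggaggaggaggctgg
The other two matches, in SLC3A2 at 38 and SLC7A1 at 8, lay after the start. A second element, TGACNNNGC, which is the core bound by the antioxidant regulator NRF2, occurred in 8 of the 27 windows (29.6%) and in 13.3% of all promoter windows. A match describes letters in the window only.

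Library totals ranged from 17598646 to 30451640 estimated counts. All 10 hepatocyte markers were detected in every group, with ALB at a mean of 8377 CPM (counts scaled to the library size). Summed markers of other cell types ran from 276 to 321 CPM. Among them SOX9 averaged 194 CPM, ACTA2 52.8 CPM, CD68 44.9 CPM and PECAM1 3.11 CPM, each detected in every library. PTPRC was at 0 in 56 of 60 libraries. The libraries of Aconiti Lateralis Radix Preparata at the middle and high dose stood apart in mitochondrial ribosomal RNA. MT-RNR1 averaged 4196 CPM in vehicle, and 6947, 27480 and 47359 CPM at the low, middle and high dose of this extract. MT-RNR2 averaged 19207 CPM in vehicle, and 24874, 63135 and 91620 CPM at these doses. Its summed hepatocyte markers, as shares of raw library totals, were 32953 to 34084 CPM at 500 µg/mL and 41333 to 42805 CPM at 20 µg/mL. These sums lack the scaling between libraries that the MT-RNR1 and MT-RNR2 values carry. The part of mitochondrial RNA in the lower sums was not tested. CPM are shares of a library, so in these bulk samples fewer cells and less RNA per cell cannot be told apart.

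The members spanned a wide range of levels. Per kilobase of exon, over the 57 replicated libraries, SLC7A5 averaged 190 CPM, PSAT1 140 CPM, ATF4 135 CPM and GDF15 132 CPM, while ATF3 averaged 1.26 CPM and VLDLR 0.29 CPM. CHAC1, a glutathione-degrading enzyme gene, had 0 to 2 counts a library (40 in all), and FGF21, a liver hormone gene, had 0 to 1 (13 in all). Neither could be tested, since 3 counts correspond to as much as 0.17 CPM. Of the 30 tested members, 23 had their highest mean among the replicated groups in Aconiti Lateralis Radix Preparata at 500 µg/mL, and 9 had their lowest in vehicle.

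The extracts differed in how many members responded between 20 and 500 µg/mL. A member is said to have risen or fallen where edgeR's quasi-likelihood test gave an adjusted p under 0.05 over all 16093 genes tested. Aconiti Lateralis Radix Preparata raised 24 of the 30 members and lowered 1, where 37.2% of all genes passed (19.2% higher, 18.1% lower). Cimicifugae Rhizoma raised 15 and lowered 5, beside 39.2% of all genes (19.5% higher, 19.7% lower). Bupleuri Radix raised 8 and lowered 7, beside 18.8% (9.9% higher, 8.89% lower), and Banhasasim-tang raised 10 and lowered 6, beside 15.1% (8.59% higher, 6.52% lower). In Yijung-tang 3 rose and 2 fell beside 3.77% of all genes (1.65% higher, 2.12% lower), and in Citri Unshius Pericarpium none rose and 4 fell, beside 1.65% (0.727% higher, 0.92% lower). The median log2 fold change of the members was 0.45 in Aconiti Lateralis Radix Preparata, 0.11 in Cimicifugae Rhizoma, -0.00 in Bupleuri Radix, 0.03 in Banhasasim-tang, 0.05 in Yijung-tang and -0.09 in Citri Unshius Pericarpium, beside 0.00 for all genes in each. For Cimicifugae Rhizoma, Bupleuri Radix and Banhasasim-tang the responses ran both ways within the group of genes. In a fit to the libraries of 1 set alone, 8 members fell and none rose in Citri Unshius Pericarpium (2.13% of all genes passed). Such fits gave 2 lower and none higher in Yijung-tang (2.05%), and 6 higher and 4 lower in Banhasasim-tang (10.9%). With the replicate number as a block as well, 3 rose and 2 fell in Yijung-tang (3.34%). The 5 calls in Yijung-tang in the fit to all sets were 2 without replicate 1 at 20 µg/mL, 2 without replicate 1 or 2 at 500 µg/mL and 3 without replicate 3 at 20 µg/mL.

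**Figure D1:**
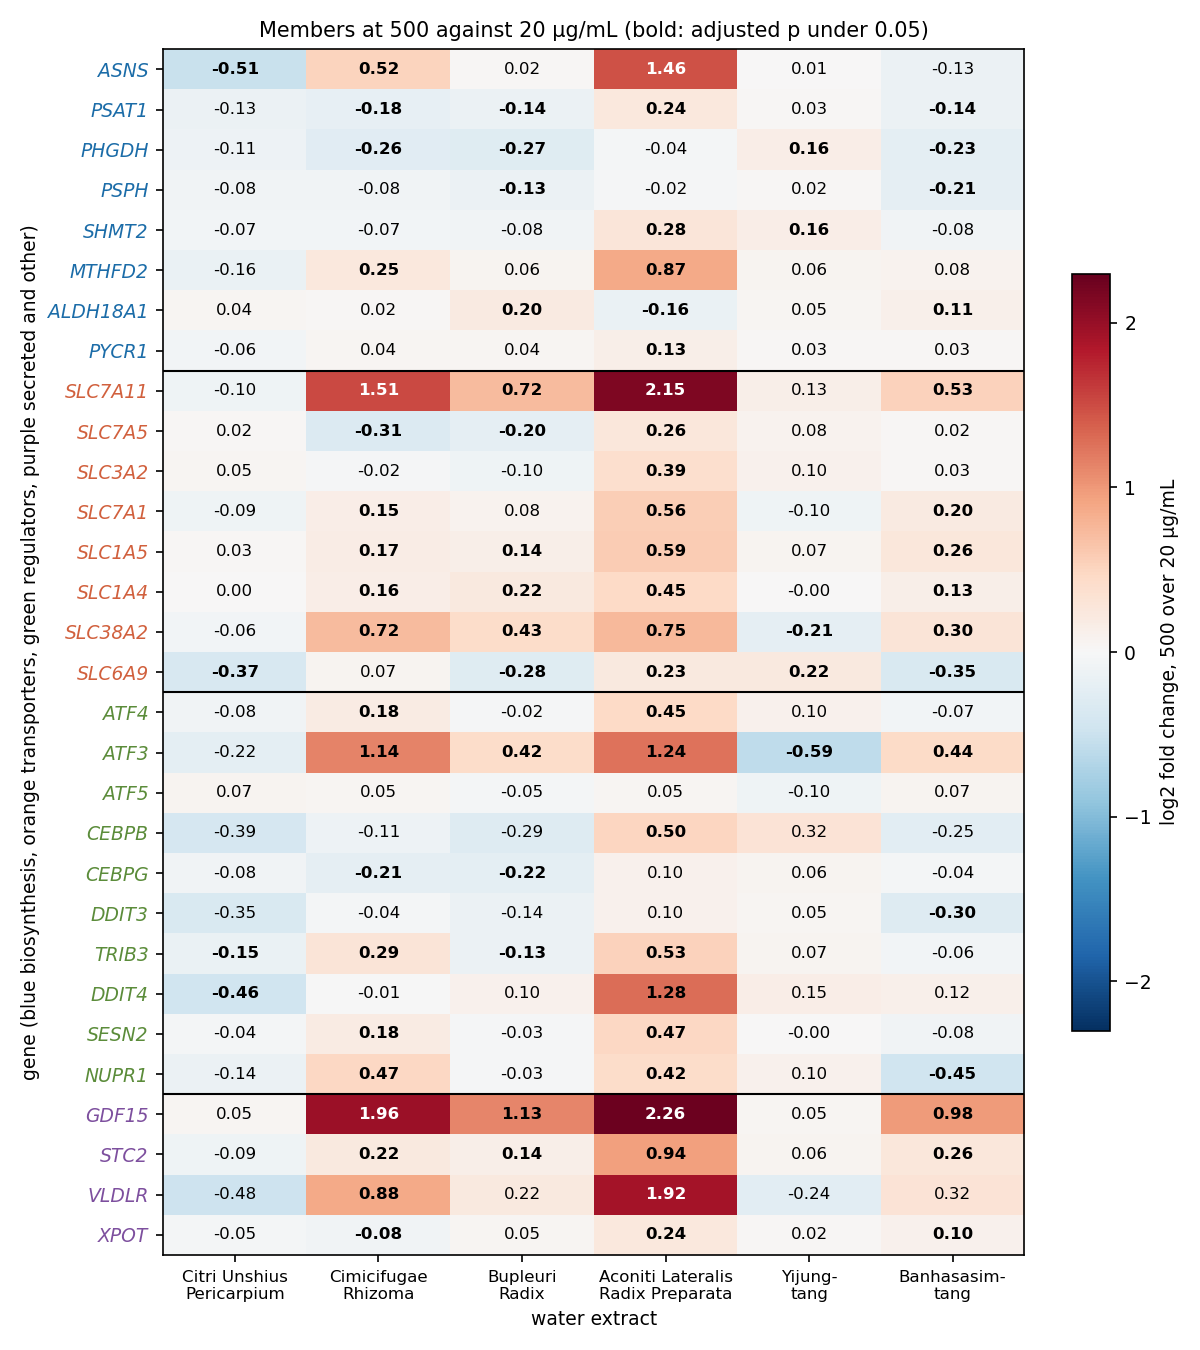
Log2 fold change of each of the 30 tested members (rows, by role) at 500 over 20 µg/mL in the 6 replicated water extracts (columns), with bold values where the adjusted p was under 0.05. Aconiti Lateralis Radix Preparata has rises in every role with GDF15 highest at 2.26, while ATF5 is not bold in any column.

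ATF4 itself, on chromosome 22 (39519695 to 39522685, plus strand, GRCh38), rose in 2 of the 6 extracts. In Aconiti Lateralis Radix Preparata its level was 465, 455 and 460 CPM at 500 µg/mL, against 334, 340 and 338 CPM at 20 µg/mL. All 3 high-dose libraries lay above all low-dose libraries, and the log2 fold change was 0.45 ± 0.044 (SE, adjusted p = 7.93e-12). In Cimicifugae Rhizoma the values were 382, 361 and 345 CPM at 500 µg/mL, against 322, 325 and 313 CPM at 20 µg/mL, which gave 0.18 ± 0.045 (adjusted p = 0.000752). The other extracts had log2 values from -0.08 to 0.10, none called. ATF4 had non-whole estimated counts in 48.3% of libraries, so some of its reads were shared out among genes by the authors' software.

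Among the biosynthesis genes, asparagine synthetase responded most. ASNS (chromosome 7, 97852118 to 97872542, minus strand), whose promoter element is shown above, makes asparagine from aspartate. Its level was 106, 112 and 102 CPM in Aconiti Lateralis Radix Preparata at 500 µg/mL, against 39.6, 37.2 and 39.4 CPM at 20 µg/mL, a log2 fold change of 1.46 ± 0.055 (adjusted p = 6.25e-27). No high-dose library came near a low-dose one. Cimicifugae Rhizoma had 64.1, 58.1 and 66 CPM at 500 µg/mL, against 42.4, 43.5 and 45.6 CPM at 20 µg/mL (0.52 ± 0.057, adjusted p = 1.44e-10). Citri Unshius Pericarpium went the other way, with 32.1, 29.2 and 28.4 CPM at 500 µg/mL, against 44.9, 40.2 and 42.9 CPM at 20 µg/mL (-0.51 ± 0.061, adjusted p = 1.01e-07), the lowest mean among the replicated groups for this gene. Vehicle stood between these at 49.2, 47.9 and 49.5 CPM.

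The serine and one-carbon enzymes split. MTHFD2, a mitochondrial folate enzyme, had 212, 223 and 203 CPM in Aconiti Lateralis Radix Preparata at 500 µg/mL, against 117, 119 and 113 CPM at 20 µg/mL (0.87 ± 0.050, adjusted p = 8.14e-20), and rose by 0.25 ± 0.051 in Cimicifugae Rhizoma. PHGDH, the first enzyme of serine synthesis from a glycolytic intermediate, did not rise in either. It stood at 127, 126 and 129 CPM in Aconiti Lateralis Radix Preparata at 500 µg/mL, against 127, 135 and 129 CPM at 20 µg/mL, with overlapping libraries. In Cimicifugae Rhizoma PHGDH was at 109, 110 and 106 CPM at 500 µg/mL, against 128, 128 and 135 CPM at 20 µg/mL (-0.26 ± 0.043, adjusted p = 1.39e-06). It also fell in Bupleuri Radix by 0.27 and in Banhasasim-tang by 0.23 on the log2 scale, and rose in Yijung-tang by 0.16 ± 0.042 (adjusted p = 0.0183). In a fit to the libraries of its set alone, no member rose in Yijung-tang.

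PSAT1, the next enzyme of the serine pathway, fell in the same 3 extracts as PHGDH (log2 -0.18 in Cimicifugae Rhizoma, -0.14 in Bupleuri Radix and -0.14 in Banhasasim-tang) and rose by 0.24 ± 0.046 in Aconiti Lateralis Radix Preparata. PSPH, the last enzyme of that pathway, fell in Bupleuri Radix and Banhasasim-tang. SHMT2, which passes serine carbon to folate in mitochondria, rose in Aconiti Lateralis Radix Preparata (0.28) and Yijung-tang (0.16). Its rise in Yijung-tang was not called in a fit to that set alone. Of the proline synthesis genes, PYCR1 rose by 0.13 in Aconiti Lateralis Radix Preparata and was not called in the other 5 extracts, and ALDH18A1 fell there by 0.16 ± 0.030 (adjusted p = 2.57e-05) while it rose in Bupleuri Radix (0.20) and Banhasasim-tang (0.11). ALDH18A1 was the only member that fell in Aconiti Lateralis Radix Preparata.

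All 8 transporter genes rose in Aconiti Lateralis Radix Preparata, as 19.2% of all genes did, with a median log2 fold change of 0.50. SLC7A11 (chromosome 4, 138164097 to 138242349, minus strand), the cystine importer, had 243, 253 and 237 CPM at 500 µg/mL, against 59.4, 54 and 51.6 CPM at 20 µg/mL (2.15 ± 0.066, adjusted p = 1.67e-30). In Cimicifugae Rhizoma it had 148, 147 and 165 CPM at 500 µg/mL, against 51.8, 52.2 and 57 CPM at 20 µg/mL (1.51 ± 0.067). In both extracts the groups were far apart, and smaller rises of SLC7A11 followed in Bupleuri Radix (0.72) and Banhasasim-tang (0.53). SLC7A11 is also a known target of NRF2. In Aconiti Lateralis Radix Preparata 7 of 8 listed NRF2 targets rose (19.2% of all genes did), with AKR1B10 at 1.74 ± 0.047. The part of NRF2 targets in the SLC7A11 result was not tested. In Citri Unshius Pericarpium and Yijung-tang 7 of 8 NRF2 targets rose as well, with medians of 0.33 and 0.45. Of all genes, 0.727% and 1.65% rose in these extracts. There SLC7A11 had log2 values of -0.10 and 0.13, neither called. In Bupleuri Radix and Banhasasim-tang, where SLC7A11 rose, most of the listed NRF2 targets rose too and the others fell. Of all genes, 9.9% and 8.59% rose in these 2 extracts.

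SLC38A2, a sodium-coupled importer of small neutral amino acids, rose in Cimicifugae Rhizoma and in Aconiti Lateralis Radix Preparata. Its level in Cimicifugae Rhizoma averaged 1206 ± 59.1 CPM at 500 µg/mL and 732 ± 13.3 CPM at 20 µg/mL (0.72 ± 0.047, adjusted p = 5.81e-18). In Aconiti Lateralis Radix Preparata it averaged 1159 ± 66.4 CPM at 500 µg/mL and 688 ± 10.7 CPM at 20 µg/mL (SD, n = 3 each; 0.75 ± 0.047, adjusted p = 1.17e-18). Bupleuri Radix (0.43) and Banhasasim-tang (0.30) also raised SLC38A2, and Yijung-tang lowered it by 0.21 ± 0.047 (adjusted p = 0.00324). SLC1A5, a glutamine carrier, and its relative SLC1A4 rose in the same 4 extracts, by 0.59 and 0.45 in Aconiti Lateralis Radix Preparata and by at most 0.26 in the other 3.

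SLC7A5 and SLC3A2 code for the 2 chains of the large neutral amino acid exchanger. Both rose in Aconiti Lateralis Radix Preparata (0.26 ± 0.046 and 0.39 ± 0.044). In Cimicifugae Rhizoma SLC7A5 fell by 0.31 ± 0.047 (adjusted p = 2.78e-07) and in Bupleuri Radix by 0.20 ± 0.046, while SLC3A2 had log2 values of -0.02 and -0.10 there, not called. SLC7A1, the cationic amino acid importer, rose in Aconiti Lateralis Radix Preparata (0.56), Banhasasim-tang (0.20) and Cimicifugae Rhizoma (0.15). The glycine transporter gene SLC6A9 rose in Aconiti Lateralis Radix Preparata (0.23) and Yijung-tang (0.22) and fell in Citri Unshius Pericarpium (-0.37), Bupleuri Radix (-0.28) and Banhasasim-tang (-0.35). The rise of SLC6A9 in Yijung-tang was not called in a fit to that set alone.

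Of the 10 stress regulators tested, 7 rose in Aconiti Lateralis Radix Preparata and none fell, beside 19.2% and 18.1% of all genes. DDIT4, an inhibitor of mTORC1 signalling, had 69.6, 74.6 and 68.9 CPM at 500 µg/mL, against 28.1, 30.9 and 28.6 CPM at 20 µg/mL (1.28 ± 0.087, adjusted p = 3.33e-17), and in Cimicifugae Rhizoma it stood at -0.01 ± 0.092, not called. ATF3, a stress-induced repressor whose promoter element is shown above, had 9.99, 12 and 9.79 CPM in Aconiti Lateralis Radix Preparata at 500 µg/mL, against 5.63, 4.25 and 3.63 CPM at 20 µg/mL (1.24 ± 0.12). ATF3 also rose in Cimicifugae Rhizoma (1.14 ± 0.12), Banhasasim-tang (0.44) and Bupleuri Radix (0.42), and fell in Yijung-tang by 0.59 ± 0.13 (adjusted p = 0.00279). In Yijung-tang the 500 µg/mL libraries held 3.25, 3.03 and 2.9 CPM, against 4.73, 4.45 and 4.68 CPM at 20 µg/mL.

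TRIB3, a pseudokinase that restrains ATF4, averaged 207 ± 7.21 CPM in Aconiti Lateralis Radix Preparata at 500 µg/mL and 143 ± 5.1 CPM at 20 µg/mL (SD, n = 3 each; 0.53 ± 0.040, adjusted p = 9.62e-16). It rose by 0.29 ± 0.041 in Cimicifugae Rhizoma and fell by 0.13 in Bupleuri Radix and by 0.15 in Citri Unshius Pericarpium. SESN2, a leucine-sensing inhibitor of mTORC1, rose in Aconiti Lateralis Radix Preparata (0.47) and Cimicifugae Rhizoma (0.18). NUPR1, a stress-induced chromatin protein, rose by 0.42 and 0.47 in these extracts, and fell in Banhasasim-tang to 13, 15.3 and 14.6 CPM at 500 µg/mL, against 18.3, 21.2 and 19.2 CPM at 20 µg/mL (-0.45 ± 0.089, adjusted p = 0.000178).

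DDIT3, which codes for the pro-death factor CHOP, did not rise in any of the 6 extracts. Its log2 value was 0.10 in Aconiti Lateralis Radix Preparata (not called) and -0.30 ± 0.098 in Banhasasim-tang (adjusted p = 0.0326). DDIT3 overlaps the methionyl-tRNA synthetase gene on the other strand and had non-whole estimated counts in 96.7% of libraries, so its counts rest on how reads were shared out. CEBPB, a partner of ATF4, rose by 0.50 ± 0.13 in Aconiti Lateralis Radix Preparata (adjusted p = 0.0018). CEBPG, another partner, fell in Cimicifugae Rhizoma (-0.21) and Bupleuri Radix (-0.22). ATF5, a related factor, was called in none of the 6.

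Among the secreted and other targets was the member with the highest fold change. GDF15 (chromosome 19, 18374731 to 18389176, plus strand), a circulating stress hormone that acts on appetite, had 940, 932 and 1013 CPM in Aconiti Lateralis Radix Preparata at 500 µg/mL, against 204, 207 and 193 CPM at 20 µg/mL (2.26 ± 0.060, adjusted p = 6.99e-33). Cimicifugae Rhizoma had 675, 693 and 606 CPM at 500 µg/mL, against 159, 176 and 171 CPM at 20 µg/mL (1.96 ± 0.060). Bupleuri Radix had 350, 335 and 378 CPM at 500 µg/mL, against 150, 160 and 176 CPM at 20 µg/mL (1.13 ± 0.059). Banhasasim-tang had 378, 351 and 368 CPM at 500 µg/mL, against 187, 197 and 174 CPM at 20 µg/mL (0.98 ± 0.059). In these 4 extracts every high-dose library was above every low-dose library, whereas Citri Unshius Pericarpium and Yijung-tang both had a log2 value of 0.05.

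GDF15 is also a known target of p53. Of 8 listed p53 targets, 3 rose and 4 fell in Aconiti Lateralis Radix Preparata (median -0.05), beside 19.2% and 18.1% of all genes. CDKN1A, a cell cycle inhibitor, was at 0.94 ± 0.041 there. In Cimicifugae Rhizoma 2 rose and 3 fell, beside 19.5% and 19.7% of all genes, with CDKN1A at 0.60 ± 0.042. The part of p53 targets in the GDF15 result was not tested. STC2, a secreted glycoprotein, had 133, 134 and 136 CPM in Aconiti Lateralis Radix Preparata at 500 µg/mL, against 70.2, 68.5 and 71.1 CPM at 20 µg/mL (0.94 ± 0.045). VLDLR, a lipoprotein receptor gene of low level, had 7.42, 7.39 and 7.15 CPM there at 500 µg/mL, against 2.17, 2.18 and 1.5 CPM at 20 µg/mL (1.92 ± 0.16, adjusted p = 5.49e-14). XPOT, the exporter of transfer RNA from the nucleus, rose by 0.24 in Aconiti Lateralis Radix Preparata and 0.10 in Banhasasim-tang and fell by 0.08 in Cimicifugae Rhizoma.

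**Figure D2:**
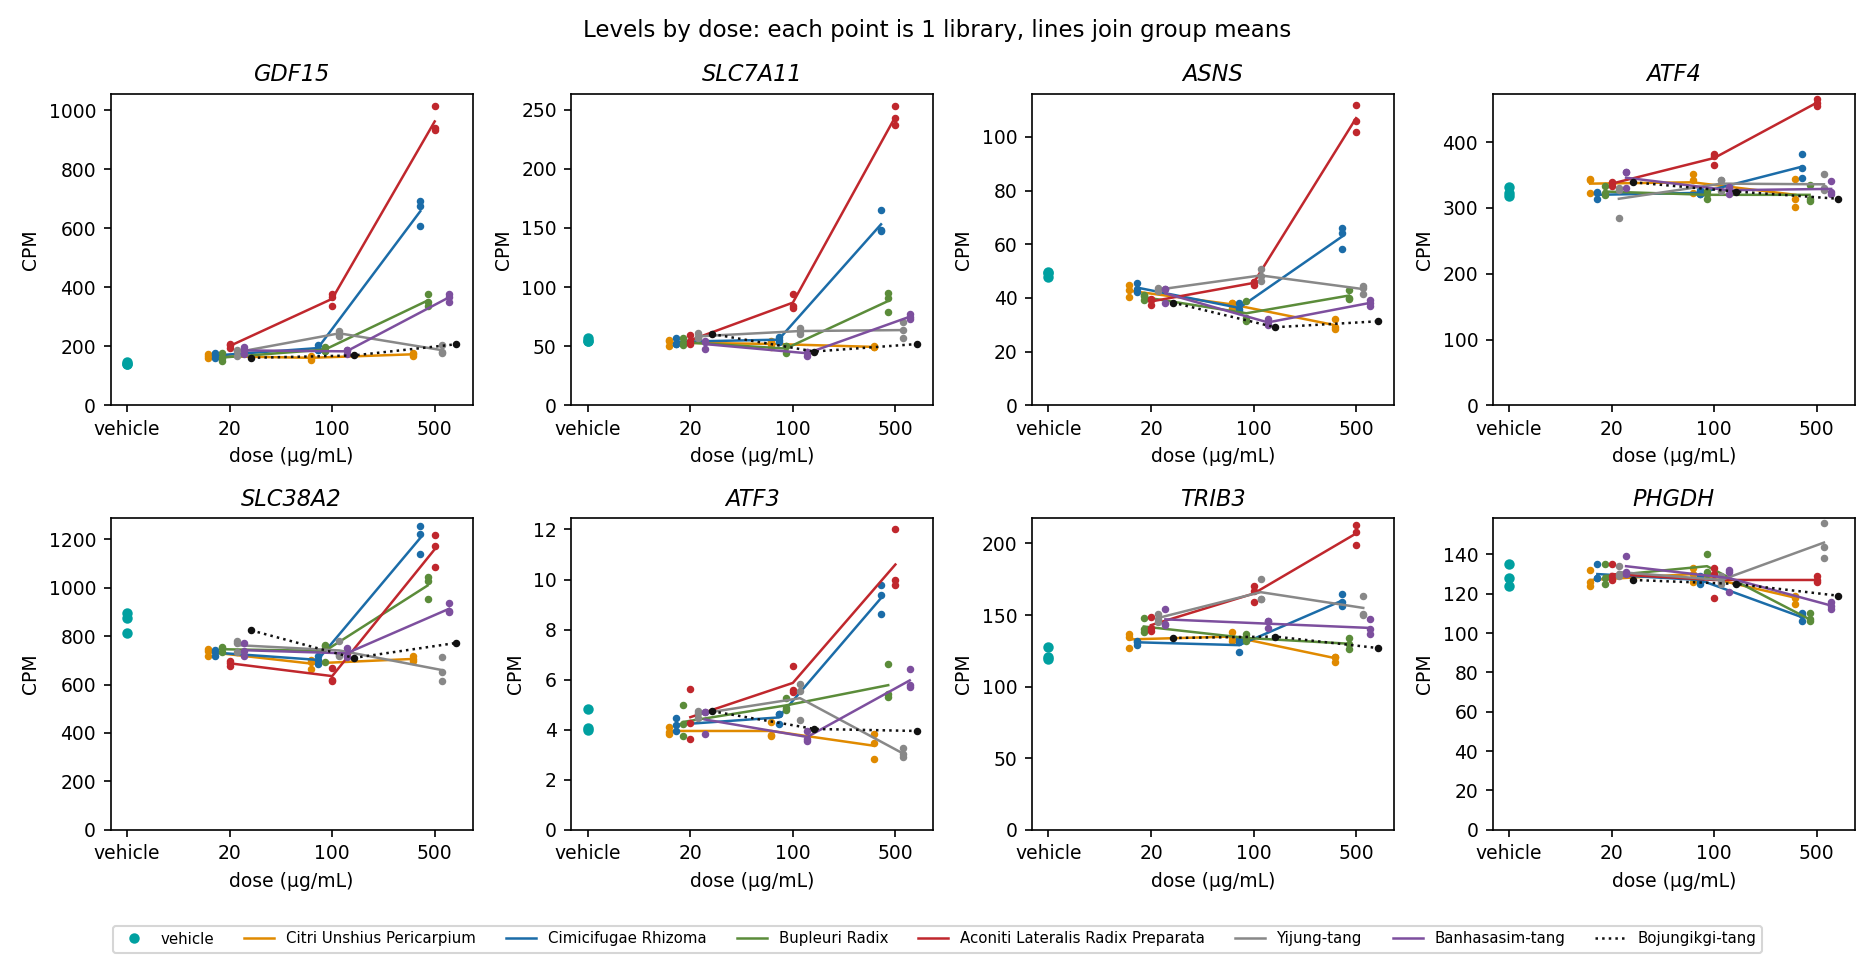
CPM (y axis, linear from 0) of 8 members in vehicle and at 20, 100 and 500 µg/mL (x axis), with each point 1 library, each colour 1 water extract and lines through group means (Bojungikgi-tang dotted, 1 library a dose). GDF15 and SLC7A11 part mostly between 100 and 500 µg/mL in 4 extracts, and PHGDH stays between 106 and 156 CPM in all libraries.

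Aconiti Lateralis Radix Preparata, Cimicifugae Rhizoma, Banhasasim-tang and Bupleuri Radix all raised 7 of the 30 members, which were SLC7A11, SLC1A5, SLC1A4, SLC38A2, ATF3, GDF15 and STC2 (23.3%), and 4.43% of all genes tested rose in all 4. No member fell in all 4, as 2.9% of genes did. This choice of 4 extracts was made after the values were seen. Over all 6 extracts, 12 members rose in at least 1 and fell in at least 1 other (40% of members), against 3.57% of all genes. The share of all genes was not matched to the members for level. PHGDH is among the 12 only through its rise in Yijung-tang, where a fit to that set alone called no rise.

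The intermediate dose separated Aconiti Lateralis Radix Preparata from the others. At 100 against 20 µg/mL, 12 members rose and 1 fell there, where 5.68% of all genes passed (3.11% higher, 2.57% lower). With the GC trend removed 13 rose and 3 fell, where 7.3% of all genes passed. GDF15 was at 337, 368 and 377 CPM at 100 µg/mL, against 204, 207 and 193 CPM at 20 µg/mL (0.84 ± 0.059, adjusted p = 1.88e-15), and SLC7A11 at 94.4, 82.2 and 83.7 CPM, against 59.4, 54 and 51.6 CPM (0.66 ± 0.066). ATF4 (0.16), ASNS (0.24), MTHFD2 (0.24), STC2 (0.36) and TRIB3 (0.21) rose too. SLC6A9 fell by 0.27 ± 0.069 at 100 µg/mL, although it rose at 500 µg/mL. SLC38A2 was at 669, 616 and 619 CPM at 100 µg/mL, against 698, 677 and 688 CPM at 20 µg/mL, not called, and DDIT4 and VLDLR were not called either. Group means of 22 of the 30 members increased in order over 20, 100 and 500 µg/mL in this extract, as did those of 26% of all genes.

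**Figure D3:**
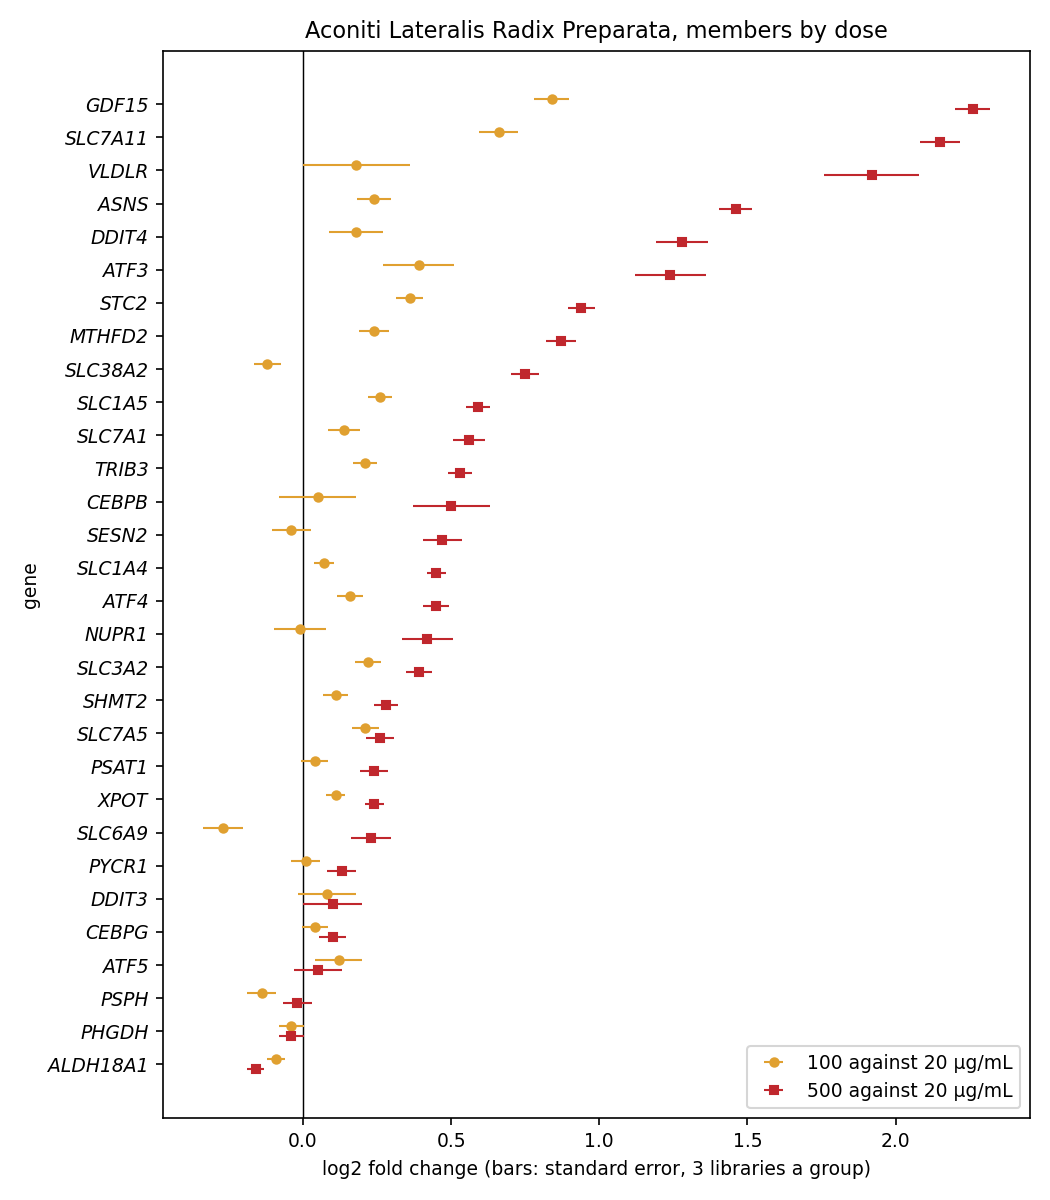
Log2 fold change (x axis) of the 30 tested members in Aconiti Lateralis Radix Preparata at 100 (circles) and 500 µg/mL (squares) over the same 3 libraries at 20 µg/mL, with bars for the standard error. SLC38A2 and SLC6A9 lie below 0 at 100 µg/mL and above 0 at 500 µg/mL.

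In the other extracts few members passed at 100 against 20 µg/mL. In Cimicifugae Rhizoma none rose and 3 fell (1.29% of all genes passed, 0.758% higher and 0.528% lower), namely ASNS (-0.27 ± 0.059), DDIT4 (-0.39 ± 0.093) and XPOT (-0.12 ± 0.033). Without replicate 1 at 100 µg/mL or replicate 3 at 20 µg/mL 0 members were called, and without replicate 3 at 100 µg/mL or replicate 2 at 20 µg/mL 1 was. ASNS had a mean of 43.9 CPM at 20, 36.3 CPM at 100 and 62.8 CPM at 500 µg/mL. In Banhasasim-tang ASNS was the only member that fell (0.0124% of all genes passed, all of them lower), with 30.4, 30.1 and 32.3 CPM at 100 µg/mL, against 38.1, 43.5 and 43.4 CPM at 20 µg/mL (-0.43 ± 0.059, adjusted p = 4.05e-05). In Yijung-tang GDF15 (0.44 ± 0.059) and TRIB3 (0.17) rose and ALDH18A1 fell by 0.11 (1.24% of all genes passed, 0.708% higher and 0.534% lower). Without replicate 1 at 100 µg/mL or replicate 2 at 20 µg/mL 1 member was called there, and with median-ratio size factors 2 rose and none fell. GDF15 in Yijung-tang averaged 180 CPM at 20, 244 CPM at 100 and 187 CPM at 500 µg/mL. None passed in Citri Unshius Pericarpium (0.0249% of all genes, 3 members at an unadjusted p under 0.05) or Bupleuri Radix (0.162%, with 0.0684% higher and 0.0932% lower, 9 members at an unadjusted p under 0.05), where DESeq2 called 0 and 1 and edgeR called 1 in Bupleuri Radix without replicate 2 at 100 µg/mL.

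The dose effects of the extracts were compared directly in the same edgeR fit. The effect of 500 against 20 µg/mL was larger in Aconiti Lateralis Radix Preparata than in Cimicifugae Rhizoma for 21 of 30 members and smaller for 1 (6.22% of all genes passed, 3.33% larger and 2.89% smaller). The differences were 0.95 ± 0.079 for ASNS, 1.29 ± 0.13 for DDIT4, 0.72 ± 0.065 for STC2 and 0.26 ± 0.063 for ATF4. For SLC38A2 (0.03 ± 0.066) and ATF3 (0.11 ± 0.17) the difference was not called. Against Bupleuri Radix, which shares its set, the dose effect of Aconiti Lateralis Radix Preparata was larger for 25 members and smaller for ALDH18A1 (10.2% of all genes, 5.19% larger and 4.98% smaller). It was larger for 26 and smaller for 1 against Banhasasim-tang (15.5%, as 7.42% and 8.03%), larger for 19 and smaller for 2 against Yijung-tang (28.8%, as 14.6% and 14.2%), and larger for 26 and smaller for 1 against Citri Unshius Pericarpium (24.2%, as 12.3% and 11.9%). These comparisons share the Aconiti libraries.

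**Figure D4:**
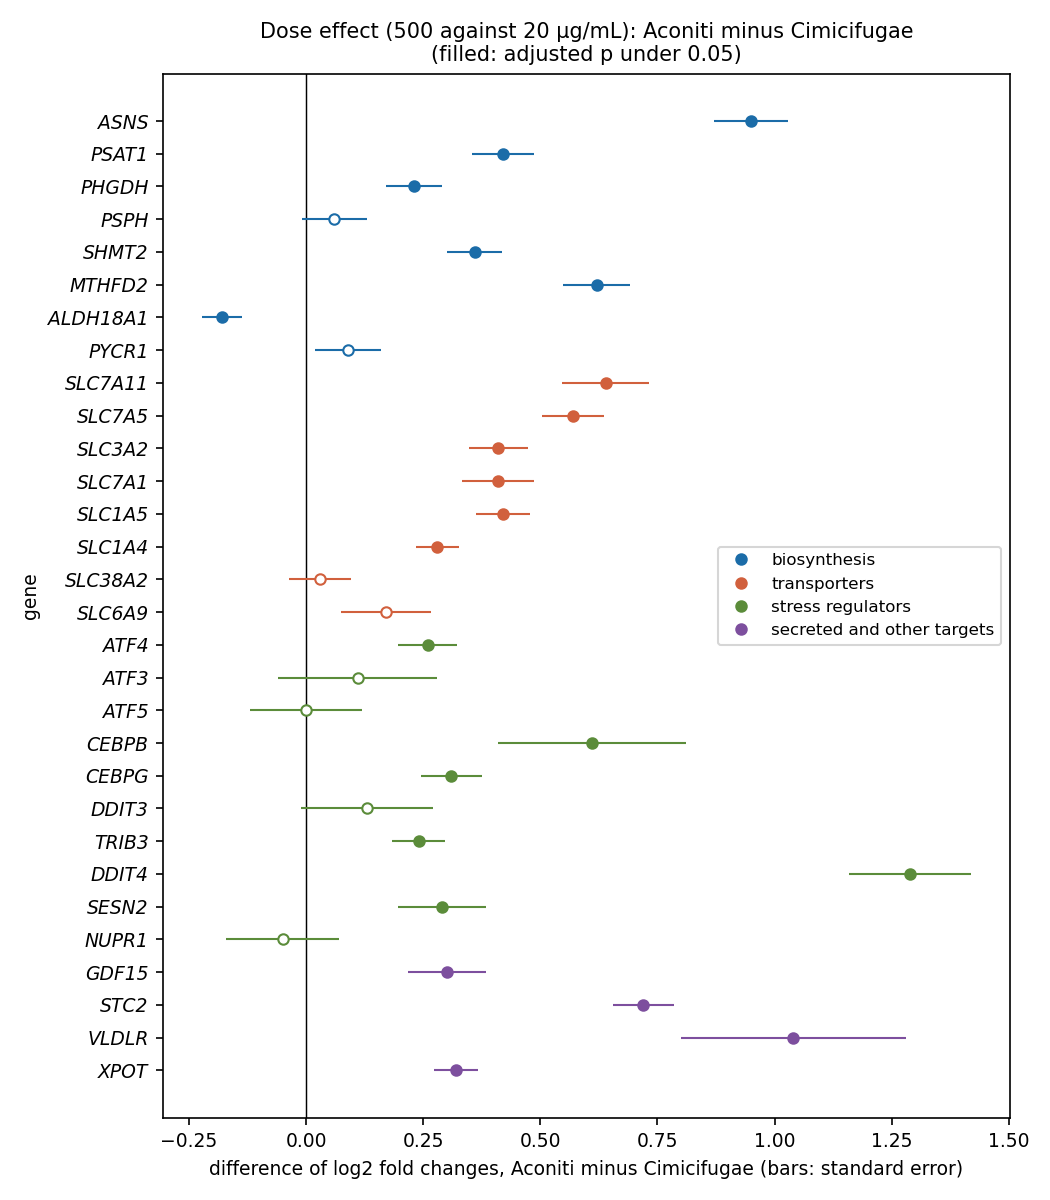
Difference of the dose effects (log2 fold change at 500 over 20 µg/mL) of Aconiti Lateralis Radix Preparata minus Cimicifugae Rhizoma for the 30 tested members, coloured by role, with bars for the standard error and filled points where the adjusted p was under 0.05. DDIT4 (1.29), VLDLR (1.04) and ASNS (0.95) lie farthest to the right, and ALDH18A1 (-0.18) is the filled point below 0.

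Cimicifugae Rhizoma and Citri Unshius Pericarpium also share a set. The dose effect was larger in Cimicifugae Rhizoma for 15 members and smaller for 1, SLC7A5 (28.2% of all genes passed, 13.5% larger and 14.7% smaller), with GDF15 at 1.91 ± 0.084, SLC7A11 at 1.61 ± 0.097 and ASNS at 1.03 ± 0.083. Between the 2 formulas of a further set, Banhasasim-tang had the larger effect for 7 members and the smaller for 6 against Yijung-tang (12.1%, as 7.07% and 5.03%). ATF3 differed by 1.03 ± 0.18, GDF15 by 0.92 ± 0.083 and PHGDH by -0.39 ± 0.059.

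At 500 µg/mL the extracts of a set were compared level by level. Aconiti Lateralis Radix Preparata stood above Bupleuri Radix in 27 members and below it in 1, where 23.5% of all genes differed (12.3% higher, 11.2% lower). ASNS averaged 107 ± 4.99 CPM in Aconiti Lateralis Radix Preparata and 40.9 ± 1.89 CPM in Bupleuri Radix (SD, n = 3 each). Cimicifugae Rhizoma stood above Citri Unshius Pericarpium in 17 members and below in 2 (41.8%, as 20.6% and 21.2%), and Banhasasim-tang stood above Yijung-tang in 6 and below in 11 (14.9%, as 7.89% and 6.98%), 11 in all without replicate 3 of Banhasasim-tang at 500 µg/mL. With the GC trend removed the split was 9 above and 8 below (16.6% of all genes).

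Comparisons with vehicle carried the difference between sets. At 500 µg/mL 25 members were higher and 3 lower than vehicle in Aconiti Lateralis Radix Preparata, 19 and 6 in Cimicifugae Rhizoma, 13 and 6 in Bupleuri Radix, 14 and 8 in Banhasasim-tang, 15 and 3 in Yijung-tang, and 5 and 9 in Citri Unshius Pericarpium. In that order 47.4%, 45.8%, 35.7%, 34.7%, 32.6% and 22.5% of all genes passed, with 24.5%, 23.5%, 19%, 18.6%, 17.5% and 12.7% higher and 22.9%, 22.3%, 16.6%, 16.2%, 15.1% and 9.78% lower. Once a GC trend was taken out of each library, Aconiti Lateralis Radix Preparata had 23 higher and 3 lower (46% of all genes passed). Cimicifugae Rhizoma had 13 and 8 (45.2%), Banhasasim-tang 10 and 9 (25.6%) and Bupleuri Radix 9 and 11 (30%). Yijung-tang had 5 and 3 (14.1%), and Citri Unshius Pericarpium had 1 higher and 13 lower (13.3%). GDF15 was above vehicle (140, 141 and 148 CPM) in all 6 extracts at 500 µg/mL, by 2.75 in Aconiti Lateralis Radix Preparata and by 0.28 in Citri Unshius Pericarpium on the log2 scale. After the GC correction GDF15 was not called in Citri Unshius Pericarpium (0.07, adjusted p = 0.342) or Yijung-tang (0.09, adjusted p = 0.21), and the log2 value in Aconiti Lateralis Radix Preparata was 2.53.

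Already at 20 µg/mL, 13 to 18 members differed from vehicle in each extract, where 19% to 31.2% of all genes did. In Citri Unshius Pericarpium, Cimicifugae Rhizoma, Bupleuri Radix, Yijung-tang and Banhasasim-tang these counts were 15, 13, 14, 15 and 15 (19.3%, 19%, 21.9%, 27.2% and 28.4% of all genes), and 3, 5, 6, 6 and 3 with a GC trend removed (6.8%, 8.48%, 7.84%, 10.3% and 5.36% of all genes under that setting). Without vehicle replicate 1 the count in Cimicifugae Rhizoma was 8. In Aconiti Lateralis Radix Preparata the count was 18 (31.2%), and 13 with the GC trend removed (17.1%). Group means of CEBPB at 20 µg/mL lay between 28 and 40.2 CPM in these 6 extracts, against 20.1 ± 2.21 CPM in vehicle (SD, n = 3). The GC trend was not removed from these means, and CEBPB had the highest GC content of the members (66.2%).

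Other genes of the pathway, from lists that extend beyond the members, were counted in the same tests. At 500 against 20 µg/mL, 19.2% of all genes rose and 18.1% fell in Aconiti Lateralis Radix Preparata. In Cimicifugae Rhizoma 19.5% of all genes rose and 19.7% fell. All 12 aminoacyl-tRNA synthetase genes, which charge transfer RNA, rose in Aconiti Lateralis Radix Preparata at 500 against 20 µg/mL (median 0.36), with GARS1 at 0.66 ± 0.036 and YARS1 at 0.42 ± 0.028. In Cimicifugae Rhizoma 5 rose and 1 fell (median 0.07), with GARS1 at 0.40 ± 0.036 and IARS1 at -0.09 ± 0.036. Of 12 tested genes of other amino acid enzymes and transporters, 8 rose and 2 fell in Aconiti Lateralis Radix Preparata. SLC38A1, a glutamine importer, rose by 0.84 ± 0.049 and ALDH1L2, a mitochondrial folate enzyme, by 1.57 ± 0.099, whereas the cytosolic folate enzymes MTHFD1 (-0.28) and SHMT1 (-0.27) fell. In Cimicifugae Rhizoma 6 rose and 2 fell, with MTHFD1 at -0.47 ± 0.031.

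Of 7 tested further ATF4 targets, 6 rose in Aconiti Lateralis Radix Preparata (19.2% of all genes rose). INHBE, an activin chain of the liver, was at 0.79 ± 0.065 there. Cimicifugae Rhizoma raised 3 (19.5% of all genes), with KLHL24 at 1.04 ± 0.099. Among the 8 genes of eIF2 kinases, eIF2 phosphatase subunits and related factors, PPP1R15A, the stress-induced phosphatase subunit that reverses eIF2 phosphorylation, rose by 1.16 ± 0.10 in Aconiti Lateralis Radix Preparata and by 1.02 ± 0.11 in Cimicifugae Rhizoma. The kinase gene EIF2AK2 fell in both, by 0.18 and 0.22, as 18.1% and 19.7% of all genes fell. PPP1R15A and EIF2AK2 are examples from this list and do not describe it as a whole.

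ATF6 and XBP1 act in the other branches of the response to unfolded protein. Of 10 listed targets, 2 rose and 5 fell in Aconiti Lateralis Radix Preparata (median -0.07), beside 19.2% and 18.1% of all genes. In Cimicifugae Rhizoma 1 rose and 7 fell (median -0.24), beside 19.5% and 19.7% of all genes. HSPA5, the chaperone BiP, fell by 0.39 ± 0.031 in Cimicifugae Rhizoma (adjusted p = 7.05e-15). EDEM1, a factor of protein degradation in the endoplasmic reticulum, rose in both extracts, by 0.47 ± 0.047 and 0.52 ± 0.047. The mitochondrial ribosomal RNAs moved with the Aconiti counts, with MT-RNR1 at 2.77 ± 0.063 at 500 against 20 µg/mL, and MT-RNR1 stood at 0.57 ± 0.059 in Cimicifugae Rhizoma. Leaving out the mitochondrially encoded genes before scaling was an alternative chosen after seeing the data. With it, 24 members rose and 1 fell in Aconiti Lateralis Radix Preparata, as before.

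**Figure D5:**
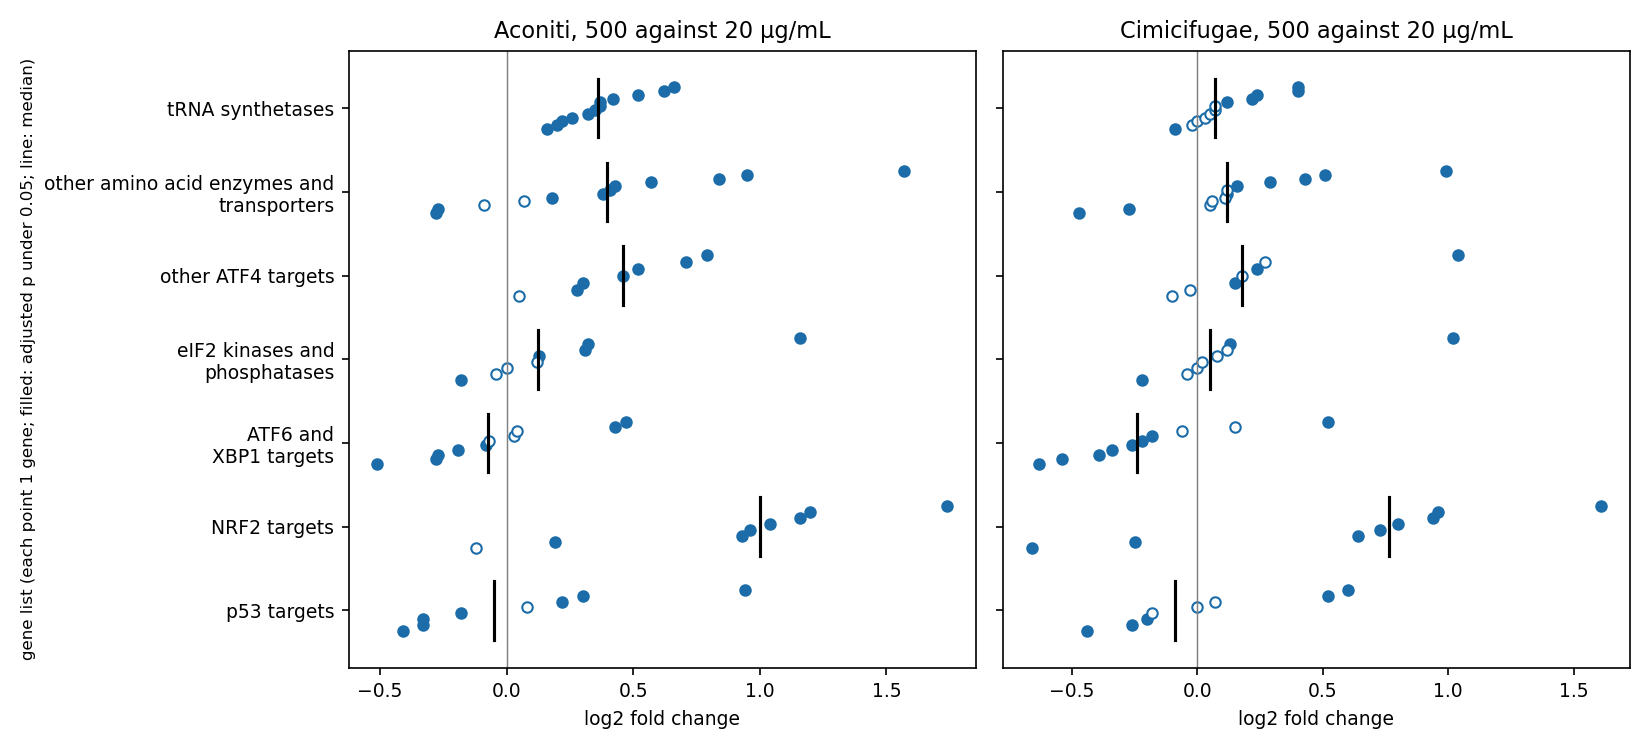
Log2 fold change at 500 over 20 µg/mL (x axis) of single genes in 7 further lists (rows) for Aconiti Lateralis Radix Preparata (left) and Cimicifugae Rhizoma (right), with filled points where the adjusted p was under 0.05 and black lines for medians. All 12 tRNA synthetase points are filled and above 0 on the left, and 7 of 10 ATF6 and XBP1 targets are filled and below 0 on the right.

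Bojungikgi-tang had 1 library a dose, so its values have no replicate check. At 500 against 20 µg/mL none of the 30 members moved past 1.5-fold, as 2.17% of all genes did, and the median log2 ratio was -0.08. GDF15 had 207 CPM at 500 µg/mL and 161 CPM at 20 µg/mL, a ratio of 1.29. NUPR1 had a ratio of 0.781, with 13.3 CPM at 500 µg/mL and 17.2 CPM at 20 µg/mL. ASNS was at 38.3 CPM at 20, 29.1 CPM at 100 and 31.3 CPM at 500 µg/mL.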

How the data were processed

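RNA of HepG2 cells was sequenced with an MGIEasy directional kit as 100 bp paired-end reads, per the labels' protocols. The submitters' processing notes name FastQC 0.11.9, Trim Galore 0.6.5, STAR 2.7.3a, RSEM 1.3.3 and the build GRCh38/hg38, and the annotation release and the strand setting are not given in the sources used here. The values the authors deposited are expected counts per gene, with no normalization. RSEM shares reads among genes that overlap or resemble each other, so 24.5% of nonzero values were not whole. For single members a tolerance of 0.005 was used. In MTHFD2, PYCR1, SLC7A5, SLC1A5, ATF5, CEBPB and DDIT3 values were not whole in at least 95% of libraries. The table also held 207 columns of no sample of the series, which were not used.

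Expected counts were rounded. GENCODE 29 gave symbols for 57055 of 60675 identifiers, and the other 3620 held 0.0398% of counts. The 57 libraries of the 19 replicated groups were fitted together with edgeR 4.0.16 (R 4.3.3) by its quasi-likelihood test, with TMM scaling (factors 0.898 to 1.04), filterByExpr (16093 genes kept) and Benjamini-Hochberg adjusted p under 0.05. The common coefficient of variation between libraries of a group was 4.86%. Standard errors derive from the log2 fold change and the F statistic. CPM are TMM-scaled. Bojungikgi-tang was left out of the fit, and its ratios use a pseudocount of 0.5 CPM. No replicates were duplicate libraries, with a chi-square per degree of freedom of 2.46 to 16.8 between them. The procedure was tested on simulated data.

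Alternatives were median-ratio size factors, DESeq2 1.42.0, no filter, a mean of at least 1 CPM, a GC trend (lowess span 0.5) removed as an offset, the replicate number as a block, fits to 1 set or to 1 extract with vehicle, and leaving out each library. Leaving out mitochondrially encoded genes was added after seeing the data. The numbers in the titles paired samples (all 3 correlations of deviations over 0.1) in Aconiti Lateralis Radix Preparata at 500 against 20 and 100 against 20 µg/mL, in Banhasasim-tang at 100 against 20 µg/mL and in Aconiti Lateralis Radix Preparata against Bupleuri Radix at 500 µg/mL. All 32 members may be named. Values in every library were given mainly for ATF4 and for the 3 highest and 3 lowest called members of each comparison of 500 with 20 µg/mL, and other lists are represented by at most 2 called genes with the smallest p in each direction. The members and lists were chosen with earlier results of these data known. A positive control named in the series design was not analysed here.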

Additional observations from a re-analysis of the deposited data

Results flagged for a closer look

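The effect of 500 against 20 µg/mL differed between extracts in the test of the difference itself (edgeR, adjusted p under 0.05). Of the 30 tested members, 26 differed between Aconiti Lateralis Radix Preparata and Bupleuri Radix (10.2% of all genes did). Against Aconiti Lateralis Radix Preparata, 22 differed in Cimicifugae Rhizoma (6.22%), 27 in Banhasasim-tang (15.5%), 21 in Yijung-tang (28.8%) and 27 in Citri Unshius Pericarpium (24.2%). Between Cimicifugae Rhizoma and Citri Unshius Pericarpium 16 differed (28.2%), and between Banhasasim-tang and Yijung-tang 13 (12.1%). The first 5 counts share the Aconiti libraries. Extracts of different sets were compared in 4 of these 5, and there the part of the set in the difference was not tested.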

How the results depend on the processing

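Counts of called members under other settings were as follows. With a GC trend removed, counts against vehicle at 20 µg/mL were 3 in Citri Unshius Pericarpium, 5 in Cimicifugae Rhizoma, 6 in Bupleuri Radix, 6 in Yijung-tang and 3 in Banhasasim-tang. In that order 6.8%, 8.48%, 7.84%, 10.3% and 5.36% of all genes passed. At 500 µg/mL the count in Yijung-tang was 8 (14.1%). At 100 against 20 µg/mL Bupleuri Radix had 2 with the GC trend removed, 1 by DESeq2 and 3 with no filter. With no filter Banhasasim-tang had 3 and Yijung-tang 1 at that dose. A fit to 1 set alone gave 8 calls for Citri Unshius Pericarpium, 10 for Banhasasim-tang and 2 for Yijung-tang (none of them higher) between 500 and 20 µg/mL. Between 100 and 20 µg/mL it gave 5 for Cimicifugae Rhizoma and 1 for Yijung-tang. Leaving out 1 library gave 2 to 4 for Yijung-tang and 10 to 14 for Bupleuri Radix (10 without replicate 3 at 20 µg/mL, 15 with all) at 500 against 20 µg/mL. It gave 0 to 3 for Cimicifugae Rhizoma, 1 to 2 for Yijung-tang and 0 to 1 for Bupleuri Radix at 100 against 20 µg/mL, 8 to 10 for Cimicifugae Rhizoma at 20 µg/mL against vehicle, and 11 to 15 for Banhasasim-tang against Yijung-tang at 500 µg/mL. Aconiti Lateralis Radix Preparata had 24 to 26 at 500 against 20 µg/mL. The cause of these shifts was not tested.

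Single calls at 500 µg/mL against vehicle changed sign with the GC trend removed for ATF5 in Bupleuri Radix (-0.04), DDIT4 in Banhasasim-tang (-0.11), Cimicifugae Rhizoma (-0.03) and Yijung-tang (-0.10), PYCR1 in Citri Unshius Pericarpium (-0.02) and Yijung-tang (-0.02), and TRIB3 in Banhasasim-tang (-0.07). Of 211 member calls, that setting left 171 called in the same direction, with 33 no longer called and 7 of the other sign. DESeq2 left 210 called in the same direction, no filter 190 and median-ratio factors 211, and none changed sign there.

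With the replicate number as a block 210 of 211 calls stayed, and Aconiti Lateralis Radix Preparata had 25 called members at 500 against 20 µg/mL, as without it. In fits to 1 set with the block the counts were 8 in Citri Unshius Pericarpium at 500, and 5 for Cimicifugae Rhizoma and 1 for Yijung-tang between 100 and 20 µg/mL. Outside the pairs named in the processing, the numbers did not pair the samples by that rule (correlations from -0.20 to 0.41). Depth limits CHAC1 and FGF21, whose counts were too low to test.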

Other observations

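In the 4 extracts not drawn in the plot of further gene lists, other genes of the pathway responded at 500 against 20 µg/mL as follows. Of 12 tRNA synthetase genes, 4 rose in Bupleuri Radix and 4 in Banhasasim-tang, with medians of 0.03 and 0.06, and none fell. Of all genes tested, 9.9% rose and 8.89% fell in Bupleuri Radix, and 8.59% rose and 6.52% fell in Banhasasim-tang. In Citri Unshius Pericarpium and Yijung-tang edgeR called none of the 12, where 1.65% and 3.77% of all genes passed, and 2 and 1 of the 12 had an unadjusted p under 0.05. Of 12 other amino acid genes, 5 rose and 1 fell in Bupleuri Radix, 4 rose and 1 fell in Banhasasim-tang, 1 rose in Yijung-tang and none was called in Citri Unshius Pericarpium (3 at an unadjusted p under 0.05). NRF2 targets rose in 6 of 8 in Bupleuri Radix and 6 of 8 in Banhasasim-tang, with 2 falling in each.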
